A study of Homo sapiens with 6 samples.

Results

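The kinases that phosphorylate SR splicing factors were examined in RNA–Seq libraries of SK-Hep1 cells with and without knockdown of the lncRNA *RAB30-DT*. The 9 genes were chosen by symbol and not by their values: *SRPK1*, *SRPK2*, *SRPK3*, *CLK1*, *CLK2*, *CLK3*, *CLK4*, *DYRK1A* and *PRPF4B*, of 62700 genes in all. Earlier results of these data were known when they were chosen. SK-Hep1 is an established human liver tumour cell line that the study describes as derived from endothelium. There were 3 libraries titled shControl and 3 titled shRAB30-DT, each numbered as replicates 1 to 3. By the study's methods the knockdown cells were stable lines made with a lentiviral short hairpin vector and puromycin. The study built more than 1 such vector and the labels do not say which one each library carried. The value columns of the knockdown libraries are headed sh1, sh2 and sh3, and the study names its knockdown vectors sh1 and sh2. Whether these headers mark replicates or vectors is not stated, and the 3 libraries were treated as replicates of 1 group. The genotype label of the control libraries reads WT although their titles name a control hairpin. Nothing in the labels says that the replicates came from separate cultures, so p-values measure only the spread between these libraries, which may be technical.

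SR proteins are splicing factors with a domain rich in arginine and serine repeats, and phosphorylation of these serines directs them into the nucleus and onto pre-mRNA. SRPK kinases act mainly in the cytoplasm and add phosphates that allow import by transportin-SR, whereas CLK kinases act in the nucleus and release SR proteins from nuclear speckles. *SRPK1* is the kinase that the study names as a partner of *RAB30-DT*, which is why its own level is given first.

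Levels are given in TPM, a unit scaled for transcript length and to the same total in every library, so a value is a share of a library's RNA. Fewer cells that express a gene and less of its RNA per cell cannot be told apart in such libraries. Fold changes are on the log2(TPM + 1) scale, knockdown minus control, from limma with Benjamini–Hochberg adjustment over the 14020 genes whose mean level reached 1 TPM, and a gene was called at an adjusted p under 0.05. Exact permutation tests of TPM are 2-sided, and 3 libraries against 3 cannot give a p below 0.1. The values hold no read number, so depth is unknown. Between 20127 and 21675 genes per library were above 0 TPM.

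The targeted lncRNA, *RAB30-DT* (ENSG00000246067.10, plus strand, chr11:83072052-83107789, hg38), was at 18.16, 11.51 and 13.91 TPM in control replicates 1 to 3 and at 11.94, 10.85 and 6.5 TPM in knockdown replicates 1 to 3. Knockdown replicate 1 was above control replicate 2, so the groups overlapped. limma gave a log2 fold change of −0.55 (95% interval −1.17 to 0.08, adjusted p = 0.355) and the exact permutation p was 0.2. Without knockdown replicate 3 its log2 fold change was −0.30. The study reports a qPCR check of the knockdown in SK-Hep-1 cells. Whether that check used the RNA of these libraries is not stated. Of 8 hepatocyte markers, 5 were at 0 in every library and 6 under 1 TPM, and *SERPINA1* carried the sum, at 18.11 to 23.96 TPM in control and 28.25 to 37.19 TPM in knockdown libraries. Of 7 endothelial markers, 6 were under 1 TPM in every library and *KDR* and *ERG* were at 0. Mesenchymal markers, mostly *VIM*, summed to 3915.37 to 4178.31 TPM in control and 4466.74 to 4912.99 TPM in knockdown libraries, without overlap. *THY1*, of the same list, went the other way, at 101.76 to 148.02 TPM in control and 76.02 to 98.74 TPM in knockdown libraries, without overlap. The remaining mesenchymal markers overlapped between groups. The part of these marker levels in the values of the kinases was not tested.

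None of the 8 kinases tested was called. Over all genes, 1.04% were called, 52 higher and 94 lower in knockdown cells, and 0 of the 8 kinases had an unadjusted p under 0.05 where 2350 of the 14020 genes did. The share called lower was 0.67%. With median-of-ratios scaling the split of calls over all genes was 60 higher and 69 lower, and with quantile normalization 78 higher and 83 lower. The groups did not overlap for 1 of the 8 kinases, *CLK2*, whereas 23.3% of all tested genes had groups without overlap, 13.4% lower and 9.89% higher in knockdown cells. The fitted changes of the kinases ran from −0.34 to 0.41 on the log2 scale, with 4 below and 4 above 0 and a median of 0.02, where the median of all genes tested was −0.04.

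**Figure D1:**
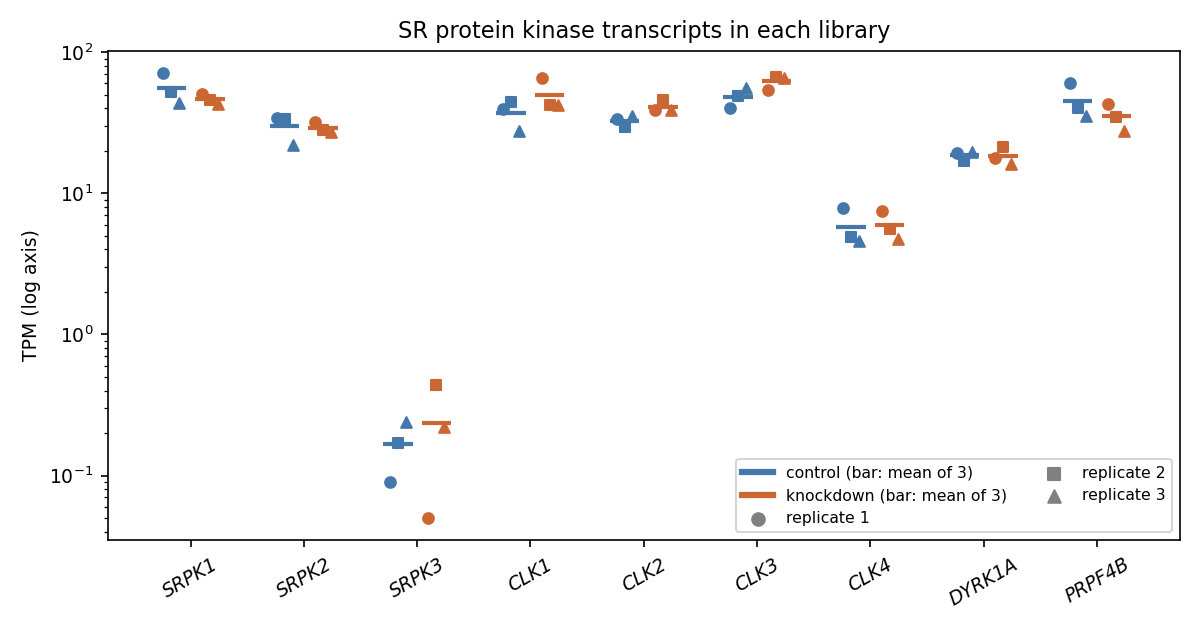
TPM of each of the 9 kinases on a log axis, with 1 point per library (circles, squares and triangles for replicates 1, 2 and 3) and a bar at the mean of 3 libraries, control in blue and knockdown in orange. *CLK2* is the only kinase above 1 TPM whose knockdown points all lie above its control points, and *SRPK3* reaches at most 0.44 TPM.

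*SRPK1* (ENSG00000096063.16), the highest of the 9 kinases by mean in control cells though under *CLK3* in control replicate 3, lies on the minus strand of chr6:35832966-35921342. The study measured it by qPCR and reports lower SRPK1 mRNA and protein after *RAB30-DT* knockdown, in cells that the figure legend does not name. The primer pair of that assay is shown because it fixes which transcripts the assay reads. The forward primer lies in exon 7 (chr6:35874292-35874313, minus strand), and the site of the reverse primer lies in exon 8 (chr6:35872675-35872696). The letters given for the reverse primer site are those of the primer itself. They are the reverse complement of the transcript there.

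SRPK1 forward primer: gggcatcatctgctcaagtgga

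SRPK1 reverse primer site: gtcagtgtggatgatacggcac

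In the canonical transcript they bound a product of 135 bases. Of the 13 annotated *SRPK1* transcripts, 4 hold both, 3 of them protein coding and 1 with a retained intron, whereas the TPM cover every annotated transcript of the gene.

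*SRPK1* was at 71.12, 52.37 and 43.50 TPM in control replicates 1 to 3 and at 50.61, 45.81 and 43.03 TPM in knockdown replicates 1 to 3. The groups overlapped, and control replicate 1 was the highest of the 6 libraries. The mean was 55.7 ± 14.1 TPM in control and 46.5 ± 3.83 TPM in knockdown cells (SD, n = 3 each). In limma the log2 fold change came to −0.23 ± 0.21 (standard error; 95% interval −0.71 to 0.25, adjusted p = 0.613), a fold of 0.853 with an interval of 0.612 to 1.19, and the exact permutation p was 0.4. Without control replicate 1 the log2 fold change was −0.04, and without control replicate 3 it was −0.39, and neither was called. With each library's trend with GC content removed it was −0.25 (95% interval −0.47 to −0.02), with an unadjusted p of 0.0363 and an adjusted p of 0.148.

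*SRPK2* (ENSG00000135250.17, minus strand, chr7:105110704-105399308), a paralog with overlapping substrates, was at 34.05, 33.33 and 21.92 TPM in control and at 32.13, 28.02 and 27.22 TPM in knockdown replicates 1 to 3. The ranges lay across each other, and the fold was 0.995 (interval 0.707 to 1.4, adjusted p = 0.989, limma; exact permutation p = 0.8). *KMT2E*, which overlaps the gene on the opposite strand, was at 14.36 to 27.03 TPM, and the library protocol names no step that marks strand, so reads of overlapping parts may not be separated.

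*SRPK3* (ENSG00000184343.11, plus strand, chrX:153776412-153785732), a kinase known from skeletal muscle, was at 0.09, 0.17 and 0.24 TPM in control and at 0.05, 0.44 and 0.22 TPM in knockdown replicates 1 to 3. It was left out of the fit for its low level, and its neighbour on the same strand, *PLXNB3*, was at 4.06 to 10.52 TPM. The ranges overlapped, with an exact permutation p of 0.7.

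Within the SRPK family, *SRPK1* made up 67.6, 61 and 66.3% of the summed TPM in control libraries and 61.1, 61.7 and 61.1% in knockdown libraries. The mean share was 64.9 ± 3.48% against 61.3 ± 0.339% (SD, n = 3 each), a difference of −3.64 percentage points. The control range enclosed the knockdown range, and the exact permutation p was 0.4. The difference was −2.33 points without control replicate 1 and −5.62 points without control replicate 2.

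*CLK1* (ENSG00000013441.17, minus strand, chr2:200853009-200864691), a nuclear kinase that phosphorylates the RS domain, was at 39.50, 44.61 and 27.67 TPM in control and at 65.49, 42.40 and 42.19 TPM in knockdown replicates 1 to 3. Only knockdown replicate 1 lay above the whole control range. The fold was 1.33 (interval 0.892 to 1.98, adjusted p = 0.448, limma; exact permutation p = 0.3). Its log2 fold change of 0.41 became 0.21 without knockdown replicate 1, 0.22 without control replicate 3 and 0.08 with arrayWeights, limma's weighting of libraries.

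*CLK4* (ENSG00000113240.14, minus strand, chr5:178602664-178630615), its close paralog, was at 7.87, 4.93 and 4.60 TPM in control and at 7.51, 5.54 and 4.77 TPM in knockdown replicates 1 to 3. Replicate 1 was the highest in both groups. The fold was 1.03 (interval 0.674 to 1.57, adjusted p = 0.955, limma; exact permutation p = 0.9). *CLK1* and *CLK4* together held 39.2, 38.8 and 26.3% of the summed CLK TPM in control and 44, 29.8 and 31% in knockdown libraries, with means of 34.7 ± 7.36% and 34.9 ± 7.86% (SD, n = 3 each). These shares overlapped (difference 0.159 percentage points, exact permutation p = 1.0), and the sign of the difference turned when 1 library was left out, to −4.37 points without knockdown replicate 1 and −4.09 without control replicate 3, while the other 4 omissions gave 2.12 to 2.72 points. Since 8 of 14 annotated *CLK1* transcripts and 7 of 13 of *CLK4* retain an intron, gene-level TPM do not show whether coding and intron-retaining forms changed against each other.

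*CLK2* (ENSG00000176444.19, minus strand, chr1:155262868-155278491), a CLK kinase that also acts in insulin signalling in liver, was at 33.34, 29.55 and 35.05 TPM in control and at 38.89, 45.87 and 38.70 TPM in knockdown replicates 1 to 3. All 3 knockdown values lay above all 3 control values. The mean was 32.6 ± 2.81 TPM in control and 41.2 ± 4.09 TPM in knockdown cells (SD, n = 3 each). In limma the log2 fold change came to 0.32 ± 0.17 (standard error; 95% interval −0.06 to 0.71, adjusted p = 0.372), and the exact permutation p was 0.1, the smallest possible. *HCN3*, on the opposite strand within this locus, was at 5.1 to 6.57 TPM.

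*CLK3* (ENSG00000179335.20, plus strand, chr15:74598500-74645414), a further nuclear CLK kinase, was at 40.17, 48.59 and 55.60 TPM in control and at 54.17, 67.17 and 65.93 TPM in knockdown replicates 1 to 3. Knockdown replicate 1 lay under control replicate 3, so the groups overlapped by that pair. The mean was 48.1 ± 7.73 TPM against 62.4 ± 7.17 TPM (SD, n = 3 each), and the fold was 1.3 (interval 0.965 to 1.74, adjusted p = 0.351, limma; exact permutation p = 0.2). *EDC3*, on the opposite strand, was at 24.38 to 37.13 TPM. With the GC trend removed *CLK3* was called (log2 fold change 0.43, adjusted p = 0.0495), beside 1232 of 14020 genes. It was not called with a replicate block added to that fit (adjusted p = 0.0582). With libraries weighted by arrayWeights both *CLK2* (0.51, adjusted p = 0.0189) and *CLK3* (0.42, adjusted p = 0.0344) were called, beside 23% of all genes. That fit gave weights of 0.325, 3.000 and 0.316 to control replicates 1 to 3. Knockdown replicates 1 to 3 had weights of 0.779, 4.388 and 0.948.

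**Figure D2:**
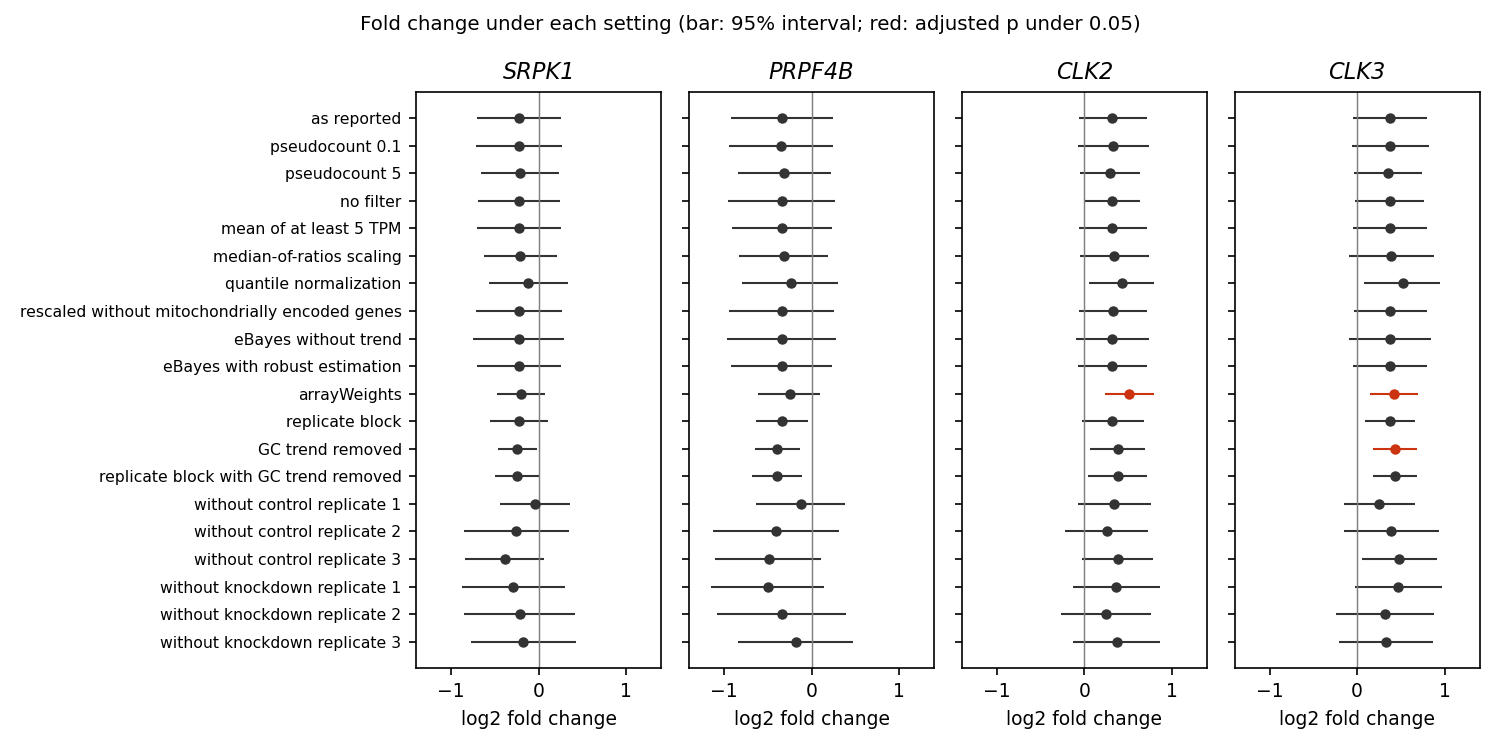
Log2 fold change (knockdown minus control, bars for 95% intervals) of *SRPK1*, *PRPF4B*, *CLK2* and *CLK3* under the reported fit and each alternative setting, in red where the adjusted p was under 0.05. Red points appear only for *CLK2* with arrayWeights and for *CLK3* with arrayWeights and with the GC trend removed.

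*DYRK1A* (ENSG00000157540.22, plus strand, chr21:37365573-37526358), a kinase of SR proteins and of many other substrates, was at 19.29, 16.85 and 19.45 TPM in control and at 17.75, 21.39 and 16.01 TPM in knockdown replicates 1 to 3. The knockdown range enclosed the control range. The fold was 0.988 (interval 0.735 to 1.33, adjusted p = 0.975, limma; exact permutation p = 1.0).

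*PRPF4B* (ENSG00000112739.17, plus strand, chr6:4021267-4064983), a kinase of the spliceosome that phosphorylates pre-mRNA processing factors, was at 59.94, 40.02 and 35.46 TPM in control and at 43.24, 34.51 and 27.47 TPM in knockdown replicates 1 to 3. Replicate 1 was the highest and replicate 3 the lowest in both groups, which overlapped. The fold was 0.789 (interval 0.528 to 1.18, adjusted p = 0.532, limma; exact permutation p = 0.4). Its log2 fold change of −0.34 became −0.12 without control replicate 1 and −0.18 without knockdown replicate 3.

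*PRPF4B* is the only one of the 8 tested kinases whose 3′UTR holds GAGTGAA. This 7-base sequence was taken from earlier results of these data and lies near the start of a *RAB30-DT* transcript. Whether it goes with the fold changes was not tested here. Of 11727 tested coding genes, 1446 (12.3%) hold it in the 3′UTR of the canonical transcript. Its copy in *PRPF4B* (chr6:4062770-4062799, plus strand, exon 15) and that in *RAB30-DT* (chr11:83072066-83072095, plus strand, exon 1) are shown with the 7 bases in capitals.

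PRPF4B 3′UTR site: atcttcaggtaGAGTGAAgccttttaatta

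RAB30-DT transcript start: aGAGTGAAggagcaaaggggactcggccgc

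The shared letters are a description and not a binding site.

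**Figure D3:**
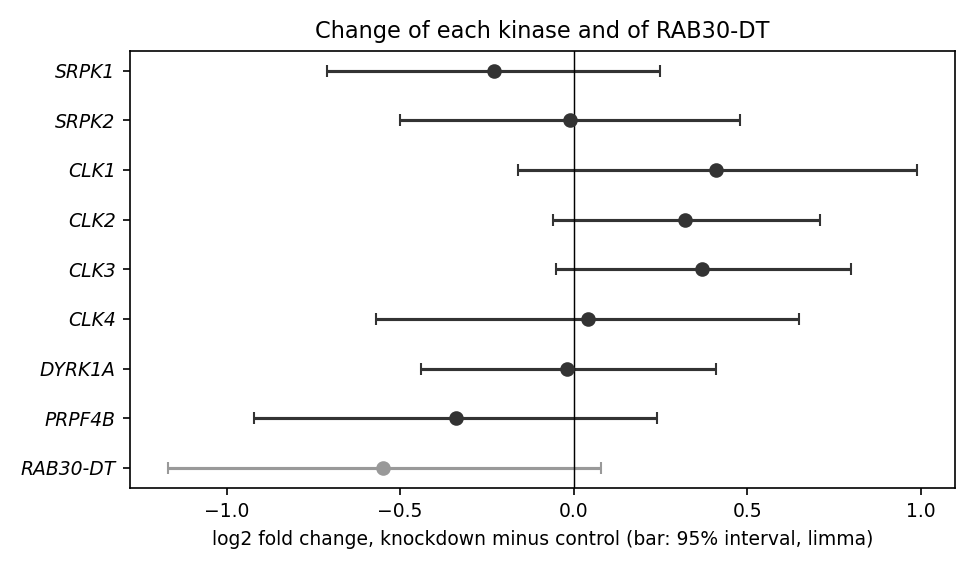
Log2 fold change (knockdown minus control) of the 8 tested kinases and *RAB30-DT* (grey), with points for the limma estimate and bars for its 95% interval. Every interval crosses 0, and the 3 kinases furthest above 0 are *CLK1*, *CLK3* and *CLK2*.

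By level in control cells the order was *SRPK1* at 55.7, *CLK3* at 48.1, *PRPF4B* at 45.1, *CLK1* at 37.3, *CLK2* at 32.6 and *SRPK2* at 29.8 TPM, and each of these overlapped its next neighbour in the libraries. *DYRK1A* at 18.5 TPM, *CLK4* at 5.8 TPM and *SRPK3* at 0.167 TPM lay apart below them. In knockdown cells the highest means were *CLK3* at 62.4, *CLK1* at 50 and *SRPK1* at 46.5 TPM, and each overlapped its next neighbour. *CLK1* was above *SRPK1* in knockdown replicate 1 only (65.49 against 50.61 TPM). In knockdown replicates 2 and 3 *CLK1* was below, at 42.40 and 42.19 against 45.81 and 43.03 TPM. The 9 kinases summed to 305, 270 and 243 TPM in control and 310, 291 and 266 TPM in knockdown replicates 1 to 3, ranges that overlapped.

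Several kinases varied with the replicate number as much as with the group. *SRPK1*, *SRPK2*, *CLK4* and *PRPF4B*, with GC contents of 37.0 to 43.0% in the canonical transcript, were highest in replicate 1 and lowest in replicate 3 of both groups, whereas *CLK3*, at 55.9%, was lowest in replicate 1 of both. The other 3 did not keep 1 order in both groups. *CLK1*, at 38.6%, was lowest in replicate 3 of both but highest in replicate 2 of control and replicate 1 of knockdown cells. *CLK2*, at 55.4%, and *DYRK1A*, at 44.5%, were lowest in replicate 2 of control and replicate 3 of knockdown cells. Across all tested genes (median GC 48.7%), the deviation of a gene from its mean correlated with GC content at a Spearman rho of −0.607, 0.297 and 0.489 in control and −0.523, 0.022 and 0.330 in knockdown replicates 1 to 3, a description across genes that share libraries. Its part in the values of the kinases was not tested.

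The genes with profiles over the 6 libraries most like that of *SRPK1* were *ZNF146* (root mean square difference of the centred log2 profiles 0.019), *CHD4* (0.036) and *CWF19L2* (0.038). *ZNF146*, a zinc finger gene, was at 103.04, 78.43 and 63.96 TPM in control and 73.76, 65.71 and 62.63 TPM in knockdown replicates 1 to 3, an order of libraries that again had control replicate 1 on top. Of the other kinases, *PRPF4B* was nearest to *SRPK1* (rank 776 of the tested genes, 0.137) and *CLK3* furthest (rank 10094, 0.479).

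The SR proteins, substrates of these kinases, were fitted lower in knockdown cells for 12 of 13 tested members, as were 53.7% of all genes tested. Their median on the log2 scale was −0.44, where all genes had −0.04. With quantile normalization it was −0.32, where all genes had −0.00. Of the SR proteins, 8 had groups without overlap, all lower (13.4% of all genes), and 1 was called (0.67% of all genes called lower). That gene, *TRA2B*, which promotes inclusion of many exons, was at 241.59, 266.75 and 300.60 TPM in control and at 150.44, 143.10 and 151.39 TPM in knockdown replicates 1 to 3. All knockdown libraries lay below all control libraries, and limma gave a log2 fold change of −0.85 ± 0.14 (standard error; adjusted p = 0.0415). It was called in 9 of 19 alternative settings, with adjusted p from 0.000803 to 0.226, and the call was lost without any 1 library other than control replicate 1 (adjusted p 0.0569 to 0.226), with median-of-ratios scaling (0.0733) and with quantile normalization (0.0584). *SRSF1*, the classic SRPK1 substrate, was at 316.56, 376.48 and 430.98 TPM in control and at 186.91, 216.37 and 217.81 TPM in knockdown replicates 1 to 3, also without overlap, with a log2 fold change of −0.84 and an adjusted p of 0.0559.

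The 14 SR protein genes summed to 2720, 2830 and 3479 TPM in control and 1971, 2006 and 2027 TPM in knockdown libraries. The knockdown sums lay below all control sums. The difference of the means was −1008 TPM, and it was −687 TPM with quantile normalization and −986 TPM with median-of-ratios scaling. Per TPM of the 9 kinases, SR protein TPM came to 8.91, 10.5 and 14.3 in control and 6.36, 6.89 and 7.63 in knockdown replicates 1 to 3, again without overlap. RNA levels do not measure kinase activity or the phosphorylation of SR proteins.

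**Figure D4:**
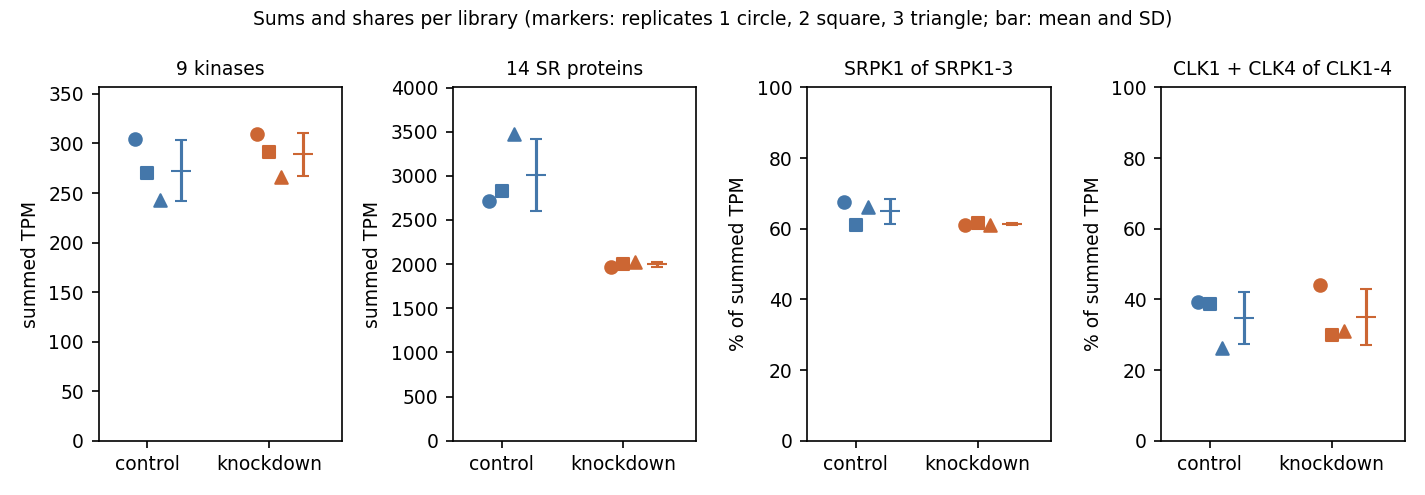
Per library, the summed TPM of the 9 kinases and of the 14 SR proteins, the share of *SRPK1* in SRPK TPM and the share of *CLK1* and *CLK4* in CLK TPM, with bars for mean and SD of 3 libraries. The SR protein sums of the knockdown libraries (1971 to 2027 TPM) lie below those of the control libraries (2720 to 3479 TPM), whereas the other 3 panels overlap.

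For the lists that follow, the shares of all genes to read beside the counts are 53.7% fitted lower, 13.4% lower and 9.89% higher without overlap, and 1.04% called. Of the other genes of the pathway, 18 of 19 tested RS-domain proteins were fitted lower (15 with quantile normalization). Their median was −0.30 (−0.14 with quantile normalization), 6 were without overlap, all lower, and 0 were called. *U2AF2*, the large subunit of the factor that binds the polypyrimidine tract, was at 116.80, 191.51 and 293.24 TPM in control replicates 1 to 3. In knockdown replicates 1 to 3 *U2AF2* was at 100.07, 109.33 and 116.55 TPM. Its log2 fold change was −0.78 (95% interval −1.47 to −0.09, adjusted p = 0.245, limma), and that of *LUC7L2*, a U1 snRNP factor, was −0.71 (adjusted p = 0.151). All 14 tested import, chaperone and phosphatase factors were fitted lower (11 with quantile normalization and 10 without control replicate 1). Their median was −0.29 (−0.13 with quantile normalization), 7 were without overlap and 0 were called. *HSP90AA1*, a chaperone that also binds SRPK1, was at 798.78, 585.77 and 540.98 TPM in control and at 478.78, 390.00 and 350.71 TPM in knockdown replicates 1 to 3, with a log2 fold change of −0.65 (adjusted p = 0.146). *SAFB2*, of the scaffold attachment factors, had −0.55 (adjusted p = 0.155).

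In the list of related kinases, which includes *TOP1*, a topoisomerase that also phosphorylates SR proteins, 8 of 16 tested genes were fitted lower and 8 higher, 3 and 2 of them without overlap, and 0 were called. *HIPK2*, a kinase related to the DYRKs, was at 19.42, 17.83 and 11.16 TPM in control and at 6.31, 6.26 and 5.55 TPM in knockdown replicates 1 to 3, without overlap, with a log2 fold change of −1.25 (standard error 0.24, adjusted p = 0.0588). *DYRK3*, which dissolves stress granules, was at 10.94, 9.22 and 7 TPM in control and at 15.03, 14.22 and 13.75 TPM in knockdown replicates 1 to 3, also without overlap, with a log2 fold change of 0.63 (adjusted p = 0.19). *HIPK2*, *DYRK3*, *HSP90AA1* and *SAFB2* were called both with arrayWeights (adjusted p 0.000971 to 0.0149) and with the GC trend removed (0.0137 to 0.0311). *SRSF1*, *U2AF2* and *LUC7L2* were called with arrayWeights only of these 2 fits (0.00155 to 0.00848). Of all genes, 23% were called with arrayWeights and 1232 of 14020 with the GC trend removed. These genes were named for large changes in the same libraries, so the further calls are not independent of that choice. All 8 tested partners of PRPF4B and DYRK1A were fitted lower (5 with quantile normalization). Their median was −0.10 (−0.02 with quantile normalization), 1 was without overlap and 0 were called. *PRPF3*, a U4/U6 snRNP factor, had −0.35 (adjusted p = 0.345). Over all 5 lists 21 of 70 tested genes had an unadjusted p under 0.05 in limma, beside 16.8% of all genes, and 21 of 70 were called with arrayWeights, beside 23% of all genes.

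**Figure D5:**
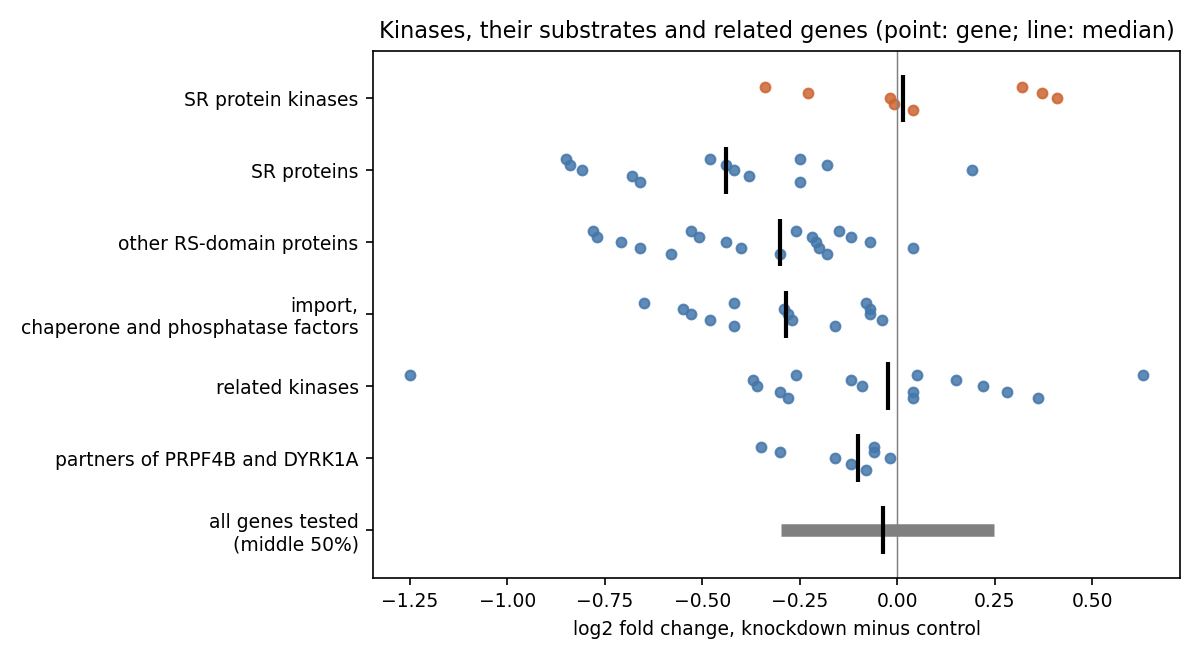
Log2 fold change (knockdown minus control) of each tested gene in 6 groups, with a line at the median, beside the middle 50% of all genes tested (grey bar). The medians are 0.02 for the kinases, −0.44 for SR proteins, −0.30 for other RS-domain proteins, −0.29 for import, chaperone and phosphatase factors, −0.03 for related kinases and −0.10 for partners.

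Lymphocyte and macrophage markers summed to 28.41 to 66.86 TPM in control and 106.62 to 129.25 TPM in knockdown libraries, mostly from *CD68*, a lysosomal gene chosen for mention after its values were seen, while *PTPRC* and *CD3E* were at 0. The kinases were not tested against these sums.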

How the data were processed

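Poly-A RNA of 6 SK-Hep1 libraries was sequenced. The authors deposited per-gene TPM, with no counts. The methods name fastp, STAR, samtools, RSEM and GENCODE Release 45, whereas the submitters' processing notes name fastp and HISAT2 2.0.5 with hg38, and all 62700 gene identifiers matched GENCODE Release 44, used here for positions, transcripts and GC content. RSEM shares reads of ambiguous origin between paralogs. The 4 annotated pseudogenes of the kinases were at 0 TPM in every library. The members and lists were chosen with earlier results of these data known. In R 4.3.3, limma 3.58.1 (lmFit, eBayes with trend) was run on log2(TPM + 1), without normalization between libraries or replicate block, with an adjusted p threshold of 0.05. GC trends were removed by loess with a span of 0.3. The fit was tested on simulated data. Named were the 9 kinases, *RAB30-DT*, and from each list the called genes and the 2 largest changes without overlap, plus the 3 genes most like *SRPK1*. Same-numbered libraries had deviations correlated at 0.410, 0.036 and 0.279. These values are all positive and cannot settle whether the libraries were paired, since libraries with different numbers were not correlated. The reported fit did not take the numbers as pairs. Alternatives were other pseudocounts, filters, scalings, eBayes settings, weights, a replicate block, GC correction and leaving out each library.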

Additional observations from a re-analysis of the deposited data

How the results depend on the processing

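The limits are the unknown depth, 3 libraries per group and the overlap of *RAB30-DT* itself between groups. Against 0 kinases, 2 were called with arrayWeights and 1 with the GC trend removed. Against 146 genes called, there were 13 with no filter, 3218 with arrayWeights, 861 with a replicate block, 1232 with the GC trend removed and 1056 with both, and 12 (without control replicate 2) to 489 (without control replicate 1) with 1 library left out. Against 1 gene of the role lists, there were 0 with no filter and 0 with eBayes without trend (24 and 16 at an unadjusted p under 0.05), 2 with a mean of at least 5 TPM, 2 rescaled without mitochondrially encoded genes, 21 with arrayWeights, 11 with the replicate block, 11 with the GC trend removed, 11 with both, and 0 to 7 with 1 library left out. The block alone changed no call of a kinase, and added to the GC correction it ended that of *CLK3* (adjusted p 0.0582). *SRPK2* turned to 0.01 with median-of-ratios scaling and 0.06 with quantile normalization, and ranged from −0.21 to 0.10 with 1 library left out. *DYRK1A* turned to 0.0014, 0.02 and, with arrayWeights, 0.20, and ranged from −0.13 to 0.07. *CLK4* turned to −0.01 with the GC trend removed, with or without the block, and ranged from −0.12 to 0.25. The causes were not tested. *SRPK1* kept its sign in 19 alternatives (−0.39 to −0.04, adjusted p 0.148 to 0.903), as did *RAB30-DT* (−0.70 to −0.24, adjusted p 0.109 to 0.661) and *PRPF4B* (−0.50 to −0.12, adjusted p 0.0693 to 0.81), and none of these 3 was called in any.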
